A study of Mus musculus with 29 samples.

Results

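Axl and Mertk, receptor tyrosine kinases of the TAM family, and their ligands Gas6 and Pros1 were followed by gene symbol through single-cell transcript counts of mouse brain and blood after stroke. All 4 genes were among the 19704 genes of the young brain tables and the 27514 of the aged brain tables. Of the 16623 genes of the blood tables, 3 were members, and Gas6 was not analysed in blood. Tyro3, the third TAM receptor, was not analysed here in young brain or blood, and it was too sparse for a test in aged brain. Counts were summed for each library and each cell type of the authors' annotation and are given as CPM, counts scaled to 1e+06 counts of that type in that library. Drop-seq, the droplet method used, counts the 3′ ends of transcripts, and CPM is not divided by gene length, so levels are compared for each gene across cells and not between genes.

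Young C57BL/6J males of 8 to 10 weeks gave 4 brain libraries 2 days after sham surgery, 4 at day 2 after transient MCAO (a temporary block of the middle cerebral artery) and 4 at day 14 after it. Aged mice of 17 to 20 months gave 2 sham libraries at day 2 (1 male, 1 female), 3 stroke libraries at day 2 (1 male, 2 female) and 1 female stroke library at day 14. Each brain library held 4 to 5 pooled hemispheres, from which microglia, CD45-high leukocytes and endothelial cells had been sorted, after papain digestion in the presence of actinomycin D in all groups. Blood leukocytes of young males, pooled from 2 mice a library, gave 4 sham libraries at day 2, 4 stroke libraries at day 2 and 3 at day 14. No sham library of day 14 was analysed, so both stroke times were set against the same sham libraries, and time since surgery cannot be told apart from stroke in the day 14 comparisons.

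TAM receptors do not bind a dying cell directly. Gas6 and protein S, the product of Pros1, attach to phosphatidylserine on its surface through a vitamin K-dependent Gla domain and to the receptor at their other end, and the engaged receptor drives engulfment and dampens inflammatory signalling. Gas6 binds Axl, Mertk and Tyro3, whereas protein S binds Mertk and Tyro3; Mertk is known as a receptor of resting microglia and other tissue macrophages, and Axl as a receptor that inflammation induces.

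The promoters are shown because the receptors and Gas6 changed in different directions in microglia after stroke. They are the 250 bases before the start that RefSeq's promoter table gives for each gene, on GRCm38.p6, read 5′ to 3′ on the gene's strand, with GC boxes (GGGCGG on either strand) in capitals. Axl lies on the minus strand of chromosome 7 (25756500 to 25788924), Mertk on the plus strand of chromosome 2 (128698915 to 128803162), Gas6 on the minus strand of chromosome 8 (13465374 to 13494535) and Pros1 on the plus strand of chromosome 16 (62854307 to 62929346). The windows of Mertk and Gas6 end at the annotated gene edge, and that of Axl (chr7:25788734-25788983) lies partly inside the gene, because RefSeq lists a start further upstream. The Mertk window is chr2:128698665-128698914 and the Gas6 window chr8:13494536-13494785.
Axl: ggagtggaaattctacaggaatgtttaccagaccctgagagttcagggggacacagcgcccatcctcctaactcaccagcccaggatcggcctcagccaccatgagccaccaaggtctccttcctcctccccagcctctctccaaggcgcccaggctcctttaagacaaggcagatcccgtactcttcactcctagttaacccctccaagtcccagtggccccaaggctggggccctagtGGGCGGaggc
Mertk: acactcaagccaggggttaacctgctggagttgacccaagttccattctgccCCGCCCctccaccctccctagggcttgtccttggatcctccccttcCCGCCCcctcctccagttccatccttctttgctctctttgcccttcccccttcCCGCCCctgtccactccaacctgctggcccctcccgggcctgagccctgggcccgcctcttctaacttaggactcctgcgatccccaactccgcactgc
Gas6: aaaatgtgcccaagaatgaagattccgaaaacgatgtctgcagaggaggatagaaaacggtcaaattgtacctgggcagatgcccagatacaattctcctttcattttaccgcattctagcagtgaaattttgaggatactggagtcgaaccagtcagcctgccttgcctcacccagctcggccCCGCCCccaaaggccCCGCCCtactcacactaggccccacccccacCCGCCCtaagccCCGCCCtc
The windows held 1 GC box in Axl, 3 in Mertk and 4 in Gas6, and that of Pros1 (chr16:62854057-62854306, not printed) held 5. Of 32851 such windows in the table, 32.7% held at least 1 GC box. The GC content was 60.0% for Axl, 63.6% for Mertk, 54.8% for Gas6 and 64.4% for Pros1, against a median of 52.4% over all windows. A search on both strands for the AP-1 motif TGANTCA (6.75% of windows), the PU.1 core GAGGAAGT (2.44%) and the LXR direct repeat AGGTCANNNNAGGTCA (0.0152%) found none of them in the 4 windows. The GAS motif TTCNNNGAA (7.02% of windows) was found in Pros1 alone, 92 bases before the start. These matches are letters only, and the counts hold no measurement of binding there.

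Brain libraries held 1143 to 5121 cells with 819438 to 5855047 counts, and blood libraries 2360 to 6328 cells with 966914 to 5232662 counts. Any pair of libraries shared at most 7 cell barcodes. The microglial, endothelial, monocyte-derived, border-associated macrophage, dendritic, granulocyte, T, B and NK codes each had their own marker list highest in the young brain. Single libraries departed from this. The 58 cells labelled microglia in stroke day 2 replicate 3 had a microglial marker sum (8 genes) of 816.5 CPM with 4 of 8 markers detected, against 12517 to 25022 CPM in the other 11 young libraries. Their sum for 8 monocyte-derived markers was 1024 CPM. In the same library Gas6 was near 0 in microglia and border-associated macrophages, unlike in every other young library, but 60.9 CPM in endothelial cells. The tests of day 2 against sham on the members in young microglia are therefore given with and without this library. Means, pooled values and subtype values at day 2 include it. Among cells labelled border-associated macrophages, the sum of 8 dendritic markers exceeded that of 8 border-associated macrophage markers in sham replicate 4 (13230 against 3376 CPM), day 14 replicate 4 (13866 against 6768 CPM) and day 14 replicate 1 (8559 against 6600 CPM). Of these dendritic sums, 13199, 13692 and 8236 CPM were H2-Ab1, an MHC class II gene.

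**Figure D1:**
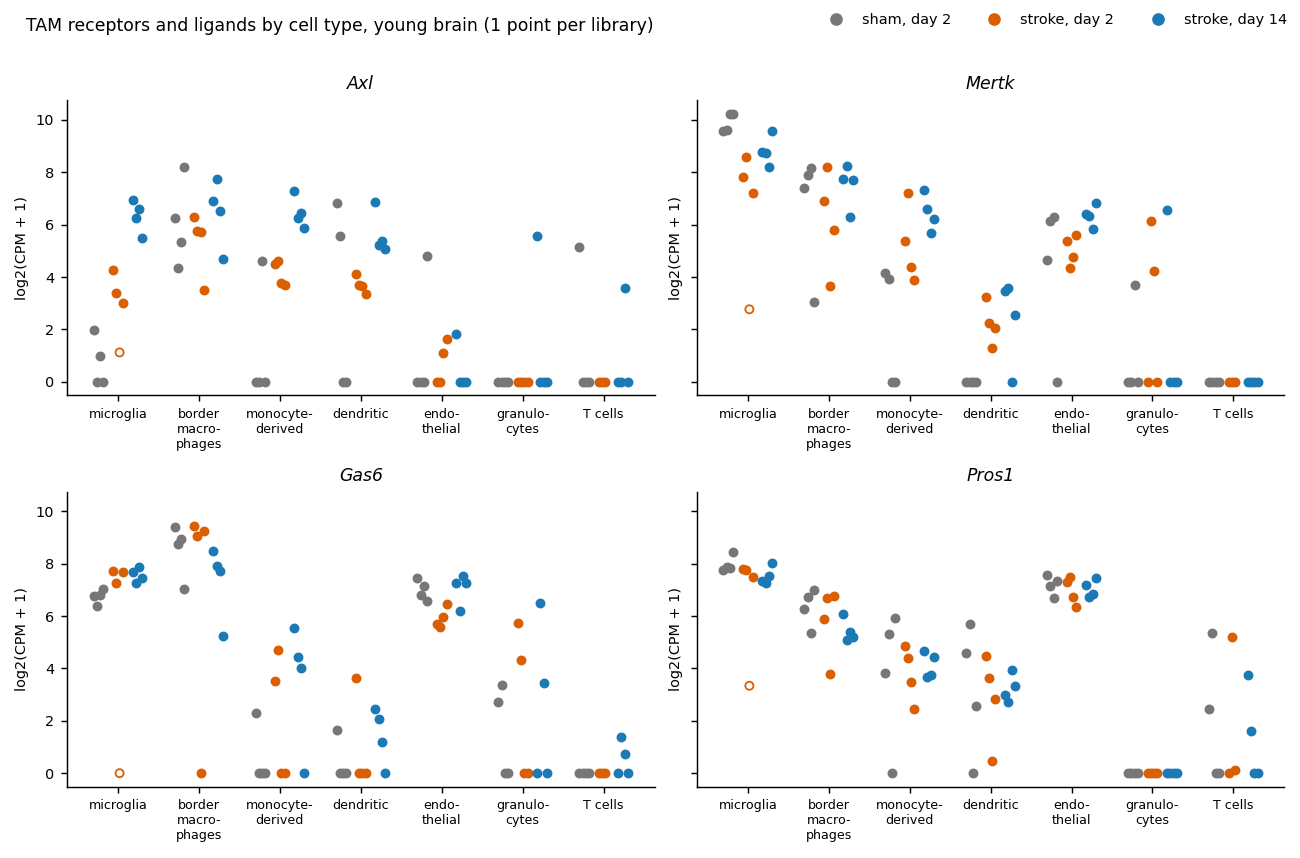
Level of each gene, as log2(CPM + 1), in 7 cell types of the young brain; each point is a library with at least 20 cells of the type, coloured by group, and the open circle is the microglia of stroke day 2 replicate 3. Mertk, Gas6 and Pros1 were high in microglia, border-associated macrophages and (Gas6, Pros1) endothelial cells, and Axl in microglia and monocyte-derived cells was high at day 14.

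In sham brain each gene had its own order of cell types. Mertk was highest in microglia, with a median of 995 CPM over 4 libraries, and every microglial library lay above every library of border-associated macrophages, the next type at 204 CPM. Endothelial cells followed at 46.6 CPM and monocyte-derived cells at 7.10 CPM, each overlapping its neighbour. Pros1 also led in microglia, at a median of 229.8 CPM, with every library above those of endothelial cells at 149.98 CPM. The macrophages of the brain borders had a median of 91.0 CPM of Pros1, and their libraries (40.0 to 127 CPM) overlapped with those of endothelial cells (103 to 189 CPM).

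Gas6 had another order. Border-associated macrophages led at a median of 464 CPM, ahead of endothelial cells at 125.7 CPM and microglia at 108 CPM, and these neighbours overlapped. The type after microglia, granulocytes at 2.82 CPM, did not overlap with it. Among the 8 types with at least 20 cells in each sham library, the median of Axl was highest in border-associated macrophages (57.9 CPM) and dendritic cells (23.4 CPM), and it was 0.49 CPM in microglia and 0 in the others.

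Lymphocytes of the young brain held few counts of any member, and their level was taken as a reference for stray RNA. Over 2220 T, B and NK cells, pooled over all young groups, with 1442567 counts there were 6 counts of Axl, or 4.16 CPM (exact Poisson 95% interval 1.53 to 9.05), 1 of Mertk, 3 of Gas6 and 5 of Pros1. Axl of sham microglia was at or below that level. The 136 cells coded MC, with mural markers highest, had 12 counts of Mertk (145 CPM, 75.0 to 254), 10 of Pros1 (121 CPM, 58.0 to 222), 6 of Gas6 (72.6 CPM, 26.6 to 158) and 3 of Axl (36.3 CPM, 7.48 to 106). The 3 Axl counts lay in 43 sham cells of subtype MC1 (146 CPM, 30.1 to 426). These intervals, and all others on counts, cover counting error only.

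Axl rose in microglia at both times after stroke, and further from day 2 to day 14. Sham microglia had 2.90, 0, 0.98 and 0 CPM in replicates 1 to 4, stroke day 2 microglia 18.5, 9.48, 1.17 and 7.01 CPM, and stroke day 14 microglia 121, 76.0, 95.7 and 43.7 CPM. All day 14 libraries lay above all others (as did 5.8% of genes against sham and 3.79% against day 2), and the day 2 libraries lay above sham except replicate 3. Set against the lymphocyte level of 4.16 CPM (1.53 to 9.05), pooled over all young groups, day 2 replicate 3 lay below the interval, replicate 4 inside it and replicate 2 just above it. T cells of day 2 itself had 0 CPM of Axl in 3 libraries, but few cells: 0 counts in 83 Tc1 cells allow up to 86.1 CPM. The mean of microglia was 0.97 ± 1.37 (SD, n = 4) in sham, 9.03 ± 7.19 at day 2 and 84.0 ± 32.5 at day 14. In edgeR's quasi-likelihood test on library sums, with Benjamini-Hochberg adjustment over 10145 genes, the log2 fold change at day 2 against sham was 3.45 ± 0.73 (SE, adjusted p = 0.0041). Against sham at day 14 it was 6.65 ± 0.65 (adjusted p = 1.52e-05). Between the stroke times it was 3.20 ± 0.55 (adjusted p = 0.0039). The filter on low counts took the 3 groups together. Axl was low in sham and at day 2, so it entered the day 2 test through the day 14 libraries.

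Since sham microglia held only 6 counts of Axl in all, the size of the fold rests on few molecules. Pooled counts were 6 in sham, 44 at day 2 and 554 at day 14, which gives a ratio to sham of 9.32 (95% counting interval 3.95 to 26.7) at day 2 and of 82.6 (37.7 to 226) at day 14. The pooled ratio of day 14 to day 2 was 8.87 (6.52 to 12.3). Without stroke day 2 replicate 3 the log2 fold change at day 2 was 3.49 ± 0.75 (edgeR, adjusted p = 0.0063) and from day 2 to day 14 it was 3.15 ± 0.58 (edgeR, adjusted p = 0.0083). With that library out of the spread, day 14 against sham was 6.65 ± 0.67 (edgeR, adjusted p = 6.10e-05).

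At day 2 against sham, Axl and Mertk were the 2 of 4 members called, at an adjusted p under 0.05, where 31.4% of all genes tested in microglia were called. At day 14 against sham, Axl and Gas6 were the 2 of 4, against 15.2% of all genes. Between the stroke times Axl was the 1 of 4, against 6.93%. Monocyte-derived marker sums of labelled microglia were 0.00 to 21.4 CPM in sham (1 to 5 of 8 markers detected), 24.5 to 1024 CPM at day 2 (1 to 8 of 8) and 31.1 to 156 CPM at day 14 (2 to 7 of 8). Their border-associated macrophage marker sums were 33.2 to 39.7 CPM (3 to 6 of 8), 21.5 to 227 CPM (5 to 8 of 8) and 94.6 to 139 CPM (5 to 8 of 8). The part of these cells in the Axl values was not tested.

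**Figure D2:**
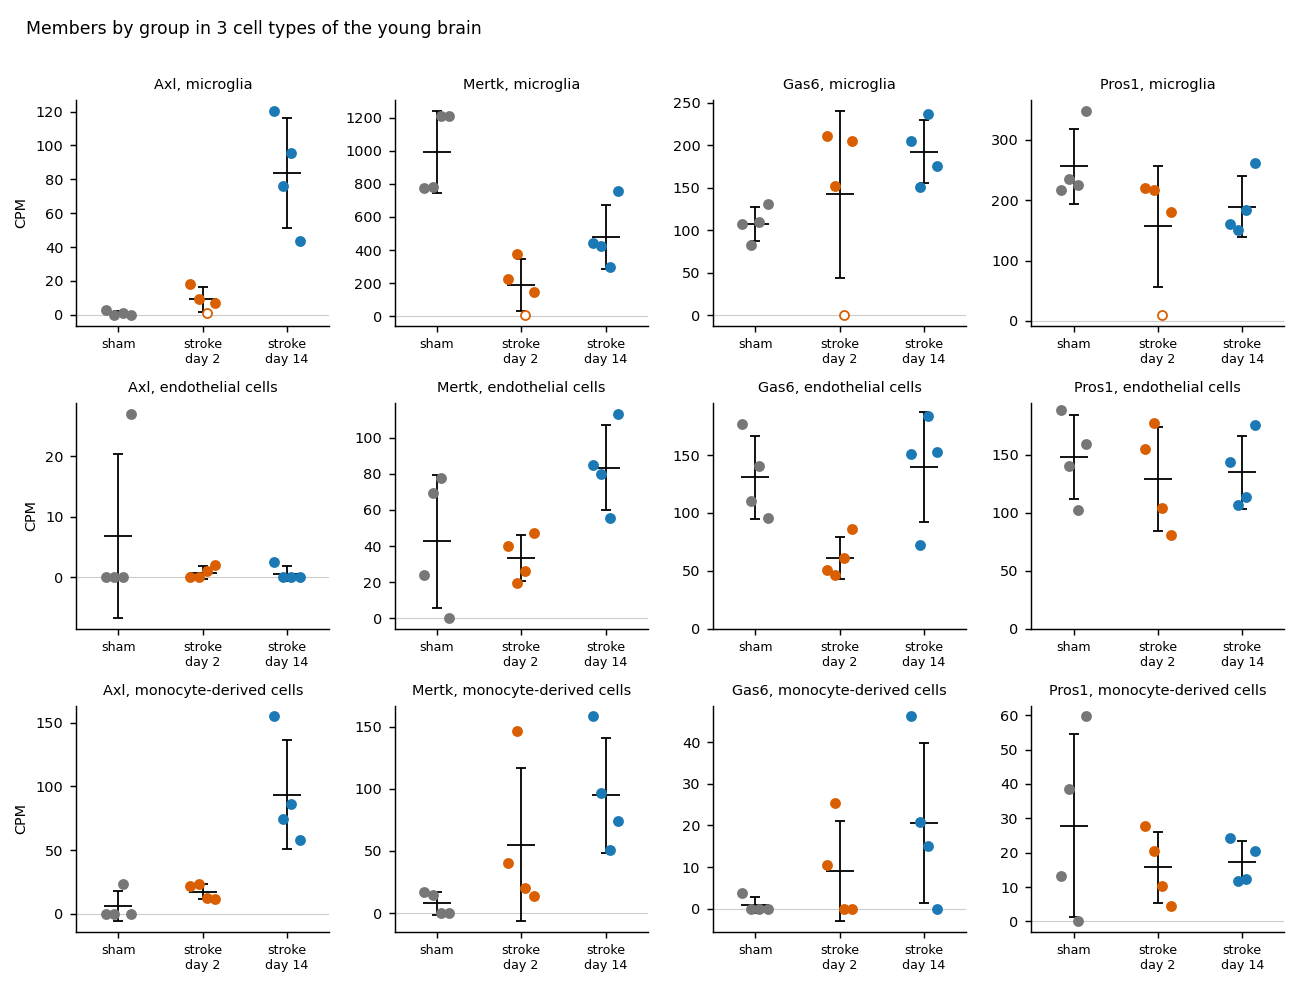
CPM of each gene in microglia, endothelial cells and monocyte-derived cells by group of the young brain; points are libraries, dashes and bars are the mean and SD of 4 libraries, and the open circle is the microglia of stroke day 2 replicate 3. Axl at day 14 lay above every other library in microglia and monocyte-derived cells, Mertk in microglia lay below sham at both times (day 14 not called), and Gas6 of endothelial cells was lowest at day 2.

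The day 14 level of Axl was shared by several of the authors' microglial subtypes, which are expression clusters and are described here with no test. Subtype Mg3 made up 59.3% to 76.4% of microglia in the day 14 libraries, 0% to 5.77% at day 2 and 0.287% to 1.21% in sham. Pooled Mg3 cells of day 14 had 92.9 CPM of Axl (83.7 to 103, 379 counts), and the 133 Mg3 cells of day 2 had 43.0 CPM (17.3 to 88.7, 7 counts), an interval that overlaps with that of day 14. The day 2 Mg3 libraries of at least 20 cells had 313 CPM (replicate 1, 20 cells), 0 and 8.7 CPM, and the day 14 libraries 52.7 to 136 CPM. The 256 cells of subtype Mg7 had 111 CPM (90.8 to 135), with 98.6 to 116 CPM in the 4 libraries. The 113 cells of Mg5 had 105 CPM (62.9 to 163) at day 14, against 11.4 CPM (7.30 to 16.9) in 911 Mg5 cells at day 2. The pooled intervals of the times were thus separate in Mg5 and overlapped in Mg3, where the day 2 libraries spread widely, and the subtype shares differed too. Mg1, the most common subtype of sham, had 0.73 CPM in sham (0.09 to 2.63) and 31.4 CPM (10.2 to 73.4, 5 counts) at day 14. Mg2 had no Axl count at day 14 among 428 cells, but only 1 library held at least 20 of them, so subtype and library cannot be told apart there.

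Monocyte-derived cells, which enter the brain from blood after stroke, also rose in Axl from day 2 to day 14. The day 2 libraries had 21.6, 23.5, 12.7 and 11.9 CPM and the day 14 libraries 155, 74.6, 86.4 and 57.6 CPM. Every day 14 library was above every day 2 library, and 4.86% of the 8080 genes tested were separated in that direction. The log2 fold change was 2.41 ± 0.40 (edgeR, adjusted p = 0.0064), with means of 93.3 ± 42.6 and 17.4 ± 5.99 CPM (SD, n = 4 each) and a pooled count ratio of 6.54 (5.44 to 7.89). Axl was the only member called of 4 in this comparison, against 1.79% of all genes. Sham brain held few such cells, 43 to 99 a library, with 1 Axl count in all; against sham, day 14 was higher by 4.74 ± 0.84 on the log2 scale (edgeR, adjusted p = 0.0034; 5.15% of genes called), and day 2 differed by 2.33 ± 1.01 (edgeR, adjusted p = 0.204). Without sham replicate 1 these values were 3.87 and 1.45. Without sham replicate 3, which held that 1 count, they were 9.79 and 7.43, fitted against a sham group at 0 and so no bound. The pooled ratio of day 14 to sham was 25.4, with a counting interval from 4.53 to 1004.

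The monocyte-derived subtypes are described here for Axl with no test. At day 14, MdC4 had 146 CPM (122 to 173), MdC5 128 CPM (105 to 154), MdC6 103 CPM (88.5 to 118) and MdC3 22.6 CPM (8.30 to 49.2). Their day 14 libraries were at 62.5 to 231 CPM in MdC4, 69.9 to 176 CPM in MdC5 and 60.0 to 123 CPM in MdC6, which overlap, and 0 to 47.4 CPM in MdC3. At day 2 MdC4 had 37.3 CPM (27.8 to 49.1) and MdC5 41.6 CPM (29.4 to 57.1). MdC6 had 22.6 CPM (6.16 to 57.9, 4 counts) and MdC3 2.72 CPM (0.56 to 7.96) at day 2. MdC3 held 76.4% of the monocyte-derived cells of sham, 14.7% at day 2 and 13.1% at day 14. The summed microglial markers of monocyte-derived cells were 0 to 518 CPM in sham (0 to 8 of 8 markers detected), 270 to 828 CPM at day 2 (2 to 8) and 291 to 2229 CPM at day 14 (2 to 8), below the 12517 CPM of the lowest labelled microglia outside stroke day 2 replicate 3, and their part in the Axl difference was not tested.

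Dendritic cells and border-associated macrophages, the types with the highest median of Axl in sham, showed no called change. In dendritic cells 1.01% of genes were called at day 2 against sham, 1.53% at day 14 against sham and 0.893% between the stroke times. Dendritic cells had 113, 46.8, 0 and 0 CPM in sham, 16.1, 12.03, 11.7 and 9.25 CPM at day 2 and 116, 36.5, 40.4 and 32.2 CPM at day 14. Day 14 lay above day 2 in every library, with a log2 difference of 2.13 ± 0.61 (edgeR, adjusted p = 0.124; 3.87% of 4365 genes were separated so). It was called in 1 of 13 alternatives, the replicate block (edgeR, adjusted p = 0.018), and ranged over 2.04 to 2.31. The sham values spread too widely for an order. Among sham subtypes of at least 20 cells, DC7 had 134 CPM (64.1 to 246, 10 counts in 74 cells), DC2 38.0 CPM on 1 count, and DC1, DC3 and DC4 none. At day 2 the 445 DC3 cells had 5.20 CPM and the 211 DC1 cells 47.0 CPM (18.9 to 96.8). At day 14 the 570 DC1 cells had 82.9 CPM (62.5 to 108) and the 126 DC6 cells 183 CPM (125 to 258). DC7 held 20 cells at day 2 and 40 at day 14. The part of the subtype mix was not tested. In border-associated macrophages Axl did not pass the filter on low counts, and its libraries ranged over 19.5 to 291 CPM in sham, 10.5 to 76.8 CPM at day 2 and 24.8 to 212 CPM at day 14.

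Within border-associated macrophages of sham brain, Axl and Gas6 were highest in different subtypes. BAM2 had 117 CPM of Axl (63.8 to 196) in sham and 41.7 CPM of Gas6 (13.5 to 97.3). BAM1 had 19.2 CPM of Axl (5.22 to 49.1) and 685 CPM of Gas6 (578 to 807). BAM3, with 96 sham cells, had 29.4 CPM of Axl (0.75 to 164, 1 count) and the highest Gas6, 824 CPM (548 to 1191). No count of Mertk fell in 202 sham BAM2 cells, which allows up to 30.7 CPM, whereas BAM1 had 326 CPM (253 to 413) and BAM3 265 CPM (121 to 503). Sham replicate 4, with the highest Axl (291 CPM) and lowest Gas6 (129 CPM) of sham border-associated macrophages, had 82.7% BAM2 among its 52 cells, against 23.4% to 35.6% in the other sham libraries. Its border-associated macrophage marker sum was 3376 CPM, against 13247 to 14937 CPM in the other sham libraries, and its monocyte-derived marker sum 4019 CPM, against 553 to 1039 CPM. Of its dendritic markers H2-Ab1 and Siglech were detected and Flt3, Zbtb46, Xcr1, Clec9a, Cd209a and Ccr7 were at 0. The part of these markers in the Axl value was not tested. At day 14 Axl was 60.6 CPM (16.5 to 155, 4 counts) in BAM1 and 139 CPM (78.0 to 230) in BAM2, intervals that overlap, and 24 aged BAM1 cells of day 14 had 183 CPM (67.0 to 398). Gas6 at day 14 was 636 CPM (459 to 860) in BAM1 and 37.2 CPM (10.1 to 95.2) in BAM2.

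Mertk fell in microglia at day 2. Sham microglia had 774, 780, 1209 and 1209 CPM, stroke day 2 microglia 228, 379, 5.82 and 146 CPM, and stroke day 14 microglia 443, 427, 295 and 755 CPM. Every stroke library lay below every sham library at both times, as did 24.0% of the genes tested at day 2 and 28.7% at day 14. The mean was 993 ± 249 CPM (SD, n = 4) in sham, 189.7 ± 156 at day 2 and 480 ± 195 at day 14. The log2 fold change was -2.04 ± 0.48 at day 2 (edgeR, adjusted p = 0.0070) and -1.83 ± 0.37 without replicate 3 (edgeR, adjusted p = 0.0042). At day 14 against sham it was -0.60 ± 0.45 (edgeR, adjusted p = 0.378), or -0.61 ± 0.32 with replicate 3 out of the spread (edgeR, adjusted p = 0.193), and the libraries' separation was not called. Fold changes here are after TMM scaling, and the means are not. Over 15 alternatives the day 14 value ran from -1.04 to -0.46, and none was called. On library size alone the median of all genes stood at -0.49 in that comparison. The difference between the stroke times was 1.44 ± 0.47 (edgeR, adjusted p = 0.084), or 1.22 ± 0.36 without replicate 3 (edgeR, adjusted p = 0.065), and it too missed the threshold. The microglial marker sum of these cells was 17380 to 25022 CPM in sham, 14218 to 16102 CPM in day 2 replicates 1, 2 and 4, and 12517 to 17312 CPM at day 14. The part of this sum, and of the monocyte-derived marker sums given with Axl, in the Mertk values was not tested.

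The microglial subtypes common at day 2 were low in Mertk, as described here with no test. Mg4 and Mg5 made up 38.4% and 33.8% of day 2 microglia, against 1.14% and 1.07% in sham. Mg4 had 143 CPM at day 2 (125 to 164) and 477 CPM in sham (332 to 663), and Mg5 had 150 CPM (134 to 167) and 680 CPM (498 to 907). Over libraries with at least 20 such cells, Mg4 ranged over 6.32 to 278 CPM at day 2 and 390 to 505 CPM in sham, and Mg5 over 115 to 257 CPM and 582 to 852 CPM, without overlap. The 6.32 CPM of Mg4 was that of stroke day 2 replicate 3, and its other day 2 libraries were at 110 to 278 CPM. Mg1 had 721 CPM at day 2 (608 to 848) and 976 CPM in sham (940 to 1014), but its libraries overlapped, at 419 to 1025 CPM and 755 to 1267 CPM. Those of Mg3 overlapped too, at 254 to 572 CPM and 466 to 950 CPM. Mg2, the second most common subtype of sham, had 392 CPM (306 to 494) at day 2 and 971 CPM (931 to 1012) in sham, with libraries at 330 to 755 CPM and 814 to 1271 CPM. Mg8 had libraries at 271 to 278 CPM and 499 to 664 CPM. In neither of these subtypes did the groups overlap, but Mg2 and Mg8 had only 2 day 2 libraries each, against 4 and 3 of sham. Mg4 had 4 and Mg5 had 3 at day 2, against 3 each of sham. The share of all genes separated so within a subtype was not taken, and over all microglia it was 24% at day 2. At day 14 Mg1 and Mg2 were at 950 CPM (804 to 1114) and 1096 CPM (956 to 1250), and Mg3, the main subtype there, at 431 CPM (412 to 452). Only 1 day 14 library held at least 20 Mg2 cells, at 1156 CPM.

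**Figure D3:**
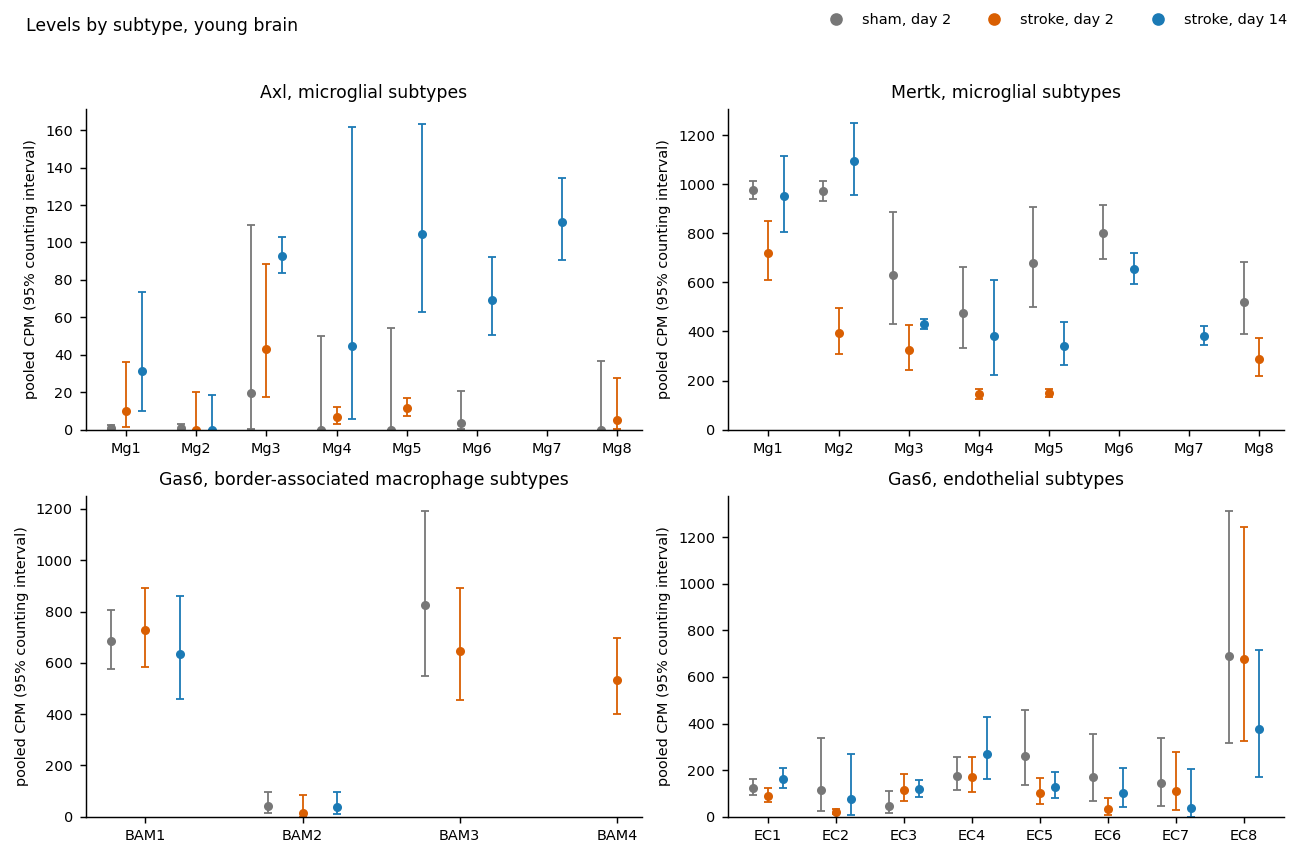
Pooled CPM with 95% counting intervals of Axl and Mertk in microglial subtypes and of Gas6 in border-associated macrophage and endothelial subtypes, for groups with more than 20 cells, in the young brain. Axl of Mg3, Mg5 and Mg7 lay near 100 CPM at day 14, Mertk of Mg4 and Mg5 was lowest at day 2, Gas6 was low in BAM2 in every group, and EC2 and EC6 at day 2 had the least Gas6 of the endothelial subtypes.

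Outside microglia no change of Mertk was called. Monocyte-derived cells had 16.7, 14.2, 0 and 0 CPM in sham, 40.3, 146, 20.0 and 13.7 CPM at day 2 and 158, 96.3, 50.7 and 73.8 CPM at day 14. The day 14 libraries lay above sham in all 4, with a log2 difference of 3.28 ± 1.05 (edgeR, adjusted p = 0.092; 7.62% of genes were separated so). DESeq2 called this difference, at 3.21 (adjusted p = 0.042). In all it was called in 4 of 16 alternatives, the others being no filter on low counts, the replicate block and only the compared groups in the fit, over a range of 2.84 to 3.91 (adjusted p 0.0024 to 0.206). Between the stroke times it was 0.81 ± 0.58 (edgeR, adjusted p = 0.701). With the replicate number as a block this was called, at 1.22 ± 0.34 (edgeR, adjusted p = 0.027), and with 1 library left out in turn it ran from 0.44 to 1.94, the latter without day 2 replicate 2 and called. The microglial marker sums of these cells, 0 to 518 CPM in sham, 270 to 828 CPM at day 2 and 291 to 2229 CPM at day 14, moved with Mertk, and their part was not tested. Subtype MdC6, which grew from 2.78% of these cells at day 2 to 34.0% at day 14, had 215 CPM (152 to 295) at day 2 and 168 CPM (150 to 188) at day 14. In MdC3 it was 3.63 CPM (0.99 to 9.30) and 26.4 CPM (10.6 to 54.4).

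Endothelial Mertk was low, at 24.1, 69.2, 77.4 and 0 CPM in sham, 40.1, 19.5, 26.4 and 47.3 CPM at day 2 and 84.7, 79.7, 55.7 and 113 CPM at day 14. Day 14 lay above day 2 in every library, as did 10.9% of genes, and the log2 difference of 1.11 ± 0.46 was not called (edgeR, adjusted p = 0.131). In border-associated macrophages Mertk was 170, 238, 285 and 7.16 CPM in sham, 117, 294, 11.8 and 54.8 CPM at day 2 and 216, 304, 77.6 and 209 CPM at day 14, and the groups overlapped. The log2 difference at day 2 against sham was -1.47 ± 0.62 (edgeR, adjusted p = 0.177; 2.67% of 1313 genes called).

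Gas6 rose in microglia and fell in endothelial cells. Sham microglia had 107, 83.0, 109.7 and 131 CPM, stroke day 2 microglia 211, 153, 0.00 and 205 CPM, and stroke day 14 microglia 205, 151, 237 and 176 CPM. Every day 14 library was above every sham library, as were 5.8% of genes, and every day 2 library but replicate 3 was. The mean was 108 ± 19.7 CPM (SD, n = 4) in sham and 192 ± 36.9 CPM at day 14, and the log2 fold change after TMM scaling was 1.31 ± 0.35 (edgeR, adjusted p = 0.025). The ratio of means without that scaling is smaller, and on library size alone the log2 fold change was 0.85 and not called (edgeR, adjusted p = 0.053), where the median of all genes stood at -0.49. The call was also lost when any of the 4 sham libraries, or day 14 replicate 1 or 3, was left out (1.15 to 1.44 over all 8 libraries left out in turn, edgeR, adjusted p up to 0.094). At day 2 the log2 difference from sham was 0.85 ± 0.36 (edgeR, adjusted p = 0.085), and without replicate 3 it was 1.02 ± 0.23 and called (edgeR, adjusted p = 0.0077). Among subtypes, Gas6 at day 2 was 264 CPM (239 to 291) in Mg4 and 105 CPM (65.0 to 161) in Mg1, and at day 14 it was 206 CPM (193 to 221) in Mg3 and 107 CPM (62.3 to 171) in Mg1. The border-associated macrophage marker sums of labelled microglia were 33.2 to 39.7 CPM in sham, 21.5 to 227 CPM at day 2 and 94.6 to 139 CPM at day 14. Their part in the Gas6 values was not tested.

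Endothelial cells had 177, 111, 141 and 95.6 CPM of Gas6 in sham, 50.8, 46.4, 60.9 and 86.3 CPM at day 2 and 151, 72.1, 184 and 153 CPM at day 14. All day 2 libraries were below all sham libraries, a separation shown by 11.9% of the 5833 genes tested, and day 14 replicate 2 alone overlapped with day 2. The log2 fold change was -1.02 ± 0.29 at day 2 against sham (edgeR, adjusted p = 0.031), with means of 61.1 ± 17.9 and 131 ± 35.8 CPM (SD, n = 4 each). From day 2 to day 14 it was 1.06 ± 0.29 (edgeR, adjusted p = 0.026), and day 14 against sham was 0.05 ± 0.29 (edgeR, adjusted p = 1.00). Gas6 was the only member called of 3 tested in endothelial cells, at day 2 against sham (13.3% of genes called) and from day 2 to day 14 (11.2%). Against sham at day 14 edgeR called 0 genes (0.0%), with 356 below 0.05 before adjustment, and DESeq2 called 9.

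The endothelial calls of Gas6 sat close to the threshold. At day 2 against sham the value was -1.23 to -0.87 with each library left out in turn, and the call ended when any of the sham libraries, or of day 2 replicates 1 to 3, was left out (edgeR, adjusted p 0.054 to 0.094). Between the stroke times, leaving out any of day 2 replicates 1 to 3, or of day 14 replicates 1, 3 and 4, ended the call. The subtype shares moved too: EC2 made up 32.7% to 59.2% of endothelial cells at day 2, 0.339% to 5.49% in sham and 0.315% to 4.75% at day 14. EC2 had 20.8 CPM (12.7 to 32.1) of Gas6 at day 2, and 116 CPM (24.0 to 339) on 3 counts in sham. EC1 had 90.4 CPM (64.3 to 124) at day 2 and 124 CPM (93.6 to 162) in sham, and EC4 had 169 and 176 CPM. EC6 had 31.2 CPM (8.51 to 79.9, 4 counts) at day 2 and 172 CPM (69.0 to 353, 7 counts) in sham, and EC5 had 102 CPM (56.9 to 168) and 262 CPM (136 to 458). EC3 went the other way, with 115 CPM (68.4 to 182) at day 2 and 46.9 CPM (15.2 to 109) in sham. These pooled values are a description, with no test. The sum of 8 endothelial markers was 15403 to 21877 CPM at day 2, below the 24566 to 32875 CPM of sham, and that of 8 mural markers was 73.7 to 255 CPM (3 to 6 of 8 detected) against 123 to 582 CPM (3 to 5 of 8). Their part in the Gas6 difference was not tested.

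The balance of Gas6 between endothelial cells and microglia was compared within libraries, a measure chosen after the values were seen. The log2 ratio of endothelial to microglial CPM was 0.72, 0.41, 0.36 and -0.45 in sham, and -2.03, -1.70 and -1.24 in day 2 replicates 1, 2 and 4. Replicate 3, with near 0 Gas6 in microglia, had 5.95. At day 14 the ratio averaged -0.52 ± 0.38 (SD, n = 4), against 0.26 ± 0.50 in sham. No difference from sham was called in exact tests. Without replicate 3, day 2 gave the smallest p that test could reach (exact p = 0.057), and day 14 gave exact p = 0.114. Both were 0.171 after Benjamini-Hochberg adjustment. With all libraries the day 2 ratio differed from sham by -0.013.

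Border-associated macrophages kept the highest median of Gas6 in each group, and no change was called. Sham libraries had 673, 437, 492 and 129 CPM, day 2 libraries 692, 540, 0.00 and 604 CPM, and day 14 libraries 356, 241, 209.6 and 37.3 CPM. The groups overlapped, and replicate 4 in sham and day 14 and replicate 3 at day 2 were the lowest. The log2 difference was -0.06 at day 2 against sham (edgeR, adjusted p = 0.965), -0.93 at day 14 against sham (edgeR, adjusted p = 0.922; 0.0762% of genes called) and -0.87 from day 2 to day 14 (edgeR, adjusted p = 0.624; 0.838%). Without day 2 replicate 3 the last of these was -1.36 ± 0.48 (edgeR, adjusted p = 0.159). Of the libraries with dendritic above border-associated macrophage marker sums, leaving out sham replicate 4 gave -0.32 at day 2 and -1.17 at day 14 against sham. Leaving out day 14 replicate 1 gave -1.46 against sham and -1.44 against day 2, and leaving out day 14 replicate 4 gave -0.68 and -0.58. BAM2, the subtype low in Gas6, made up 16.1% to 28.4% of these cells at day 2 and 35% to 56.9% at day 14. Pooled BAM1 cells had 685 CPM of Gas6 in sham (578 to 807), 726 CPM at day 2 (586 to 891) and 636 CPM at day 14 (459 to 860). Only 1 library held at least 20 BAM1 cells at day 2 (731 CPM) and 1 at day 14 (857 CPM). The part of the subtype shares was not tested. Monocyte-derived cells had 3.86, 0, 0 and 0 CPM of Gas6 in sham, 10.5, 25.5, 0 and 0 CPM at day 2 and 46.2, 20.9, 15.1 and 0 CPM at day 14, and no difference was called.

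Pros1 was called in no comparison. Sham microglia had 218, 235, 225 and 349 CPM, day 2 microglia 220, 217, 9.14 and 181 CPM, and day 14 microglia 160, 151, 183 and 262 CPM, so that the groups overlapped. The log2 difference from sham was -0.31 ± 0.36 at day 2 (edgeR, adjusted p = 0.53), -0.14 ± 0.24 without replicate 3 (edgeR, adjusted p = 0.668), and 0.01 ± 0.35 at day 14 (edgeR, adjusted p = 0.988). The day 14 value turned below 0 without TMM (-0.43) and with DESeq2 (-0.14), and 3 of 4 day 14 libraries had less Pros1 than every sham library. Endothelial cells had 189, 141, 103 and 159 CPM in sham, 155, 178, 104 and 80.7 CPM at day 2 and 144, 106, 114 and 176 CPM at day 14. Their log2 difference from sham was -0.13 ± 0.27 at day 2 (edgeR, adjusted p = 0.772) and -0.20 ± 0.28 at day 14 (edgeR, adjusted p = 0.985). In border-associated macrophages Pros1 was 40.0 to 127 CPM in sham, 12.9 to 107 CPM at day 2 and 32.6 to 67.2 CPM at day 14. In monocyte-derived cells it was 0 to 59.6, 4.51 to 27.7 and 11.7 to 24.4 CPM.

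Genes around the TAM system were read from 8 lists of 62 genes. In microglia at day 2, 4 of 47 tested list genes rose and 8 fell (25.5% called, against 31.4% of all genes). Among other receptors and bridges for dying cells, 3 of 13 rose and 2 fell. Cd36, a scavenger receptor, rose from 1.15 ± 0.87 to 35.8 ± 13.5 CPM (SD, n = 4 each; log2 fold change 5.26 ± 0.57, edgeR, adjusted p = 3.99e-05), and Cd300lf, a phosphatidylserine receptor, by 2.64 ± 0.45 (edgeR, adjusted p = 0.0011). Without day 2 replicate 3 these were 5.29 and 2.55 (edgeR, adjusted p = 0.00019 and 0.0025). The monocyte-derived marker sums of these cells, 0.00 to 21.4 CPM in sham and 24.5 to 1024 CPM at day 2, moved with them, and their part was not tested. In the list of engulfment machinery 0 of 8 rose and 2 fell, Elmo1 by 1.76 ± 0.35 on the log2 scale (edgeR, adjusted p = 0.0026) and Dock1 by 1.00 ± 0.35 (edgeR, adjusted p = 0.044). The proteins of this pair act together to activate Rac in engulfment. The call of Dock1 was lost without day 2 replicate 3 (-0.96, edgeR, adjusted p = 0.050). In the list of phosphatidylserine exposure, 0 of 5 rose and 2 fell, the scramblase Ano6 (-1.19 ± 0.32, edgeR, adjusted p = 0.014) and the flippase Atp8a1 (-1.11 ± 0.36, edgeR, adjusted p = 0.031). The median of these 5 was -1.11, against -0.05 over all genes, and -0.67 for 6 tested without replicate 3. Without that library 4 of 48 list genes were higher and 8 lower at day 2.

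At day 14 against sham, 6 of 47 list genes rose in microglia and 4 fell (21.3%, against 15.2%). Vkorc1, which recycles the vitamin K that Gas6 and protein S need for their Gla domains, rose from 124 ± 24.2 to 202 ± 37.1 CPM (SD, n = 4 each; log2 fold change 1.17 ± 0.28, edgeR, adjusted p = 0.013). Cd36 and Cd300lf were higher by 3.06 ± 0.58 and 2.15 ± 0.43 (edgeR, adjusted p = 0.0036 and 0.0050), Elmo1 lower (-1.38 ± 0.33, edgeR, adjusted p = 0.013), and Pik3r1, a subunit of the PI3 kinase below TAM receptors, lower (-1.09 ± 0.27, edgeR, adjusted p = 0.016). From day 2 to day 14, 4 rose and 1 fell (10.6%, against 6.93%). Among them the LXR targets Abcg1 and Mylip rose by 1.39 ± 0.28 and 1.19 ± 0.26 (edgeR, adjusted p = 0.010 and 0.014), Ifnar2 by 0.62 ± 0.17 (edgeR, adjusted p = 0.040), and Cd36 fell (-2.19 ± 0.45, edgeR, adjusted p = 0.011). Without day 2 replicate 3 the counts were 7 higher and 5 lower of 48 at day 14 against sham, and 4 and 1 of 48 between the stroke times.

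In endothelial cells at day 2, 0 of 32 list genes rose and 5 fell (15.6%, against 13.3%). The endothelial marker sums given with Gas6 were also below sham at day 2, and their part was not tested. Timp3, an inhibitor of the proteases that shed receptors, was at 542 CPM at day 2 and 1387 CPM in sham (-1.26 ± 0.30, edgeR, adjusted p = 0.013). The flippase Atp8a1 (-1.27 ± 0.31, edgeR, adjusted p = 0.016) and the interferon receptor Ifnar1 (-0.83 ± 0.23, edgeR, adjusted p = 0.029) were lower too. From day 2 to day 14, 3 of 32 rose and 0 fell (9.38%, against 11.2%), among them Atp8a1 by 1.14 and Ifnar1 by 1.04 (edgeR, adjusted p = 0.027 and 0.010).

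In monocyte-derived cells the list of the LXR axis, nuclear receptors that answer to the cholesterol of ingested cells, had 4 of 7 higher and 0 lower at day 14 against sham (median 2.45, against 0.28 over all genes). Abca1, a cholesterol exporter, rose from 11.3 ± 10.9 to 182 ± 53.2 CPM (SD, n = 4 each; 3.82 ± 0.79, edgeR, adjusted p = 0.010), and the receptor Nr1h3 from 0.83 to 31.7 CPM (edgeR, adjusted p = 0.0090). Over all lists, 8 of 47 rose and 1, Cd36, fell (-2.10 ± 0.53, edgeR, adjusted p = 0.030; 19.1%, against 5.15%). At day 2 against sham 6 of 47 rose and 0 fell (12.8%, against 6.71%), among them Stab1, a phosphatidylserine receptor (2.48, edgeR, adjusted p = 0.0018), and Cd300lf, from 92.4 ± 34.8 to 364 ± 31.6 CPM (SD, n = 4 each; 2.23, edgeR, adjusted p = 0.00086). The microglial marker sums given with Mertk for these cells, 0 to 518 CPM in sham and 291 to 2229 CPM at day 14, moved with these lists, and their part was not tested. The share of MdC3, given with Axl, was also far higher in sham than at either stroke time. The part of this subtype mix in the list results was not tested. Between the stroke times Mylip and Abcg1 were the 2 that rose (1.88 ± 0.33 and 1.29 ± 0.23, edgeR, adjusted p = 0.0079 and 0.0099; 4.26%, against 1.79%).

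**Figure D4:**
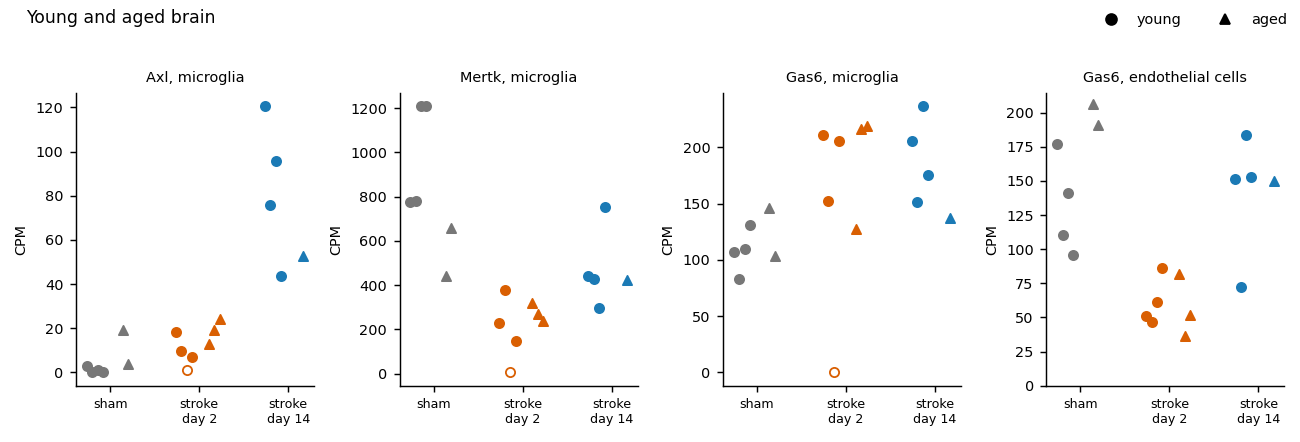
CPM of Axl, Mertk and Gas6 in microglia and of Gas6 in endothelial cells, by group; circles are young and triangles aged libraries, and the open circle is the microglia of stroke day 2 replicate 3. Aged Mertk in microglia and aged Gas6 in endothelial cells were lower at day 2 than in both aged sham libraries.

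In aged brain no member was called in microglia at day 2 against aged sham, where 2.3% of 11096 genes were. Mertk was 441 CPM in the male and 657 CPM in the female sham library, and 319.9, 268 and 237 CPM in the male and the 2 female stroke libraries. The stroke libraries all lay below sham, as did 17.9% of genes, and the log2 difference was -0.92 ± 0.52 (edgeR, adjusted p = 0.407). Axl was 19.3 and 3.72 CPM in aged sham and 12.8, 19.1 and 24.0 CPM at day 2, overlapping (0.94 ± 0.99, edgeR, adjusted p = 0.718), and 52.9 CPM in the single day 14 library. Gas6 was 146 and 103 CPM in sham and 128, 216 and 219 CPM at day 2, and Pros1 218 and 260 CPM and 185, 168 and 287 CPM, both overlapping. The difference between the aged and the young stroke effect was -2.53 ± 1.29 for Axl (edgeR, adjusted p = 0.768) and 1.10 ± 0.68 for Mertk (edgeR, adjusted p = 0.772). For Gas6 it was -0.24 ± 0.61 (edgeR, adjusted p = 0.992) and for Pros1 0.14 ± 0.59 (edgeR, adjusted p = 1.00). That test called 0 of 11096 genes with edgeR, 623 of them below 0.05 before adjustment, and 1 with DESeq2. With 1 library left out in turn, the Axl difference ran from -4.10 (without young sham replicate 1) to -1.21 (without the aged male sham library), and that of Gas6 from -0.51 to -0.05. The 2 aged sham libraries limit the precision, and sexes were mixed in the aged groups alone.

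Aged endothelial cells had 206 and 191 CPM of Gas6 in sham and 82.0, 36.7 and 52.0 CPM at day 2, with no overlap (14.3% of genes were separated so). The log2 fold change was -1.65 ± 0.38 (edgeR, adjusted p = 0.058; 0.606% of 6604 genes called), just over the threshold, and DESeq2 called it (-1.68, adjusted p = 0.033). In all it was called in 3 of 11 alternatives, none of them a fit with 1 library left out, and it ranged over -2.05 to -1.48. Its difference from the young effect was -0.66 ± 0.47 (edgeR, adjusted p = 0.850). The single day 14 library had 149.7 CPM of Gas6 in endothelial cells.

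Blood leukocytes held little of either receptor. Monocytes had 16 counts of Axl over all 11 libraries, or 2.99 CPM (1.71 to 4.85), and 7 of Mertk, or 1.31 CPM (0.53 to 2.69). The 17186 neutrophils had 0 counts of either receptor and 1 of Pros1, and 26809 T, B and NK cells had 2 of Axl, 0 of Mertk and 3 of Pros1. Pros1 of monocytes was higher, at 48.0 CPM (42.3 to 54.3), with 54.1, 52.3, 54.9 and 38.4 CPM in sham, 58.2, 17.1, 74.1 and 55.1 CPM at day 2 and 24.8, 49.6 and 23.2 CPM at day 14. The groups overlapped. The log2 difference from sham was 0.20 ± 0.32 at day 2 and -0.55 ± 0.35 at day 14 (edgeR, adjusted p = 1.00 and 0.999). Pros1 was the only member tested there. Blood dendritic cells had 11 counts of Pros1 (23.1 CPM, 11.5 to 41.3). The 68 cells coded UC had 13 (401 CPM, 214 to 686). Their highest marker list was that of border-associated macrophages (mean 1880 CPM), the next that of mural cells (920 CPM), and their cell type was not determined.

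Across 102 library and cell type sums of the young brain (12 libraries, 11 types), which share libraries and depth, Mertk, Gas6 and Pros1 resembled each other more than Axl. The Pearson correlation of log2(CPM + 1) was 0.75 for Mertk and Pros1, 0.72 for Mertk and Gas6, 0.67 for Gas6 and Pros1, and 0.33 to 0.45 for Axl with the others. Among 6892 genes, those most like Mertk included Pmp22 (0.80), Itm2b (0.77), Pros1 (0.75) and Ccdc152 (0.74). Those most like Gas6 included Sbf2 (0.85), Pmp22 (0.83), Stard8 (0.77) and Slco2b1 (0.76). The genes most like Pros1 included Pmp22 (0.79), Srgap2 (0.78), Tspan4 (0.78) and Kdelc2 (0.77). Axl was most like Ifi211 (0.70), Cln8 (0.67), Cyp27a1 (0.65), Igf1 (0.64) and Tmem106a (0.64).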

How the data were processed

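The authors deposited expected counts per gene and cell and an annotation of each cell; these counts are not whole, and the step that made them so is not given in the sources used here. The submitters' processing notes name mm10 and Seurat; the aligner is not given in the sources used here. The deposited percent of mitochondrial counts per cell, per the file headers, was not used. Every deposited cell was kept, with no doublet step. Counts were summed per library and parent type, rounded, and fitted for types with at least 20 cells a library with edgeR 4.0.16 (quasi-likelihood, TMM, filterByExpr) in R 4.3.3 on all genes, with two-sided tests and Benjamini-Hochberg adjustment over all genes tested; genes with an adjusted p under 0.05 are called. SE is the fold change over the square root of F. CPM is printed without TMM, fold changes with it. Young brain fits hold 3 groups, day 2 fits 4. The script was tested on simulated data. The members, lists and tests were chosen with earlier results of these data known. From each list and comparison at most the 2 called genes with the largest fold change and a mean of at least 10 CPM are named, and for each member the 5 genes most like it; some of these genes are not reported here. The closing section gives the alternatives, with DESeq2 1.42.0. The labels do not say that libraries came from separate animals beyond the pools, so p-values measure the spread between libraries. Values under 0.5 gave at most 1.06% of a member's counts.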

Additional observations from a re-analysis of the deposited data

Results flagged for a closer look

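In 3 of 40 groups of libraries examined, 1 library stood apart from the others, by a gap to the next library of 0.84 to 0.90 of the group's range. Chance gives about 1 in 20. Dendritic cells of stroke day 14 replicate 1 had 116 CPM of Axl, against 32.2 to 40.4 CPM in the other 3 libraries. Microglia of sham replicate 4 had 349 CPM of Pros1, against 218 to 235 CPM in the other 3. Blood monocytes of sham replicate 4 had 38.4 CPM of Pros1, against 52.3 to 54.9 CPM in the other 3.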

How the results depend on the processing

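In microglia, Axl kept its call in the 3 comparisons under every alternative that gave it a value (log2 fold changes 2.99 to 5.05 at day 2, 6.19 to 8.25 at day 14 and 2.90 to 3.58 between them). At day 2 those were 13 alternatives, against 14 for each other member. Mertk at day 2 kept its call in all of its alternatives (-2.48 to -1.83). So did Axl in monocyte-derived cells from day 2 to day 14 (2.04 to 2.57) and at day 14 against sham (3.87 to 4.97, and 9.79 without sham replicate 3, which leaves sham at 0 counts). Of 40 list gene results that the naming rule gave, 19 kept their call in every alternative, 21 lost it in some, and none changed sign. Of those named, the calls of microglia at day 2 held in 6 of 14 alternatives for Dock1, 11 for Ano6 and 9 for Atp8a1. At day 14 they held in 14 of 15 for Elmo1 and 13 for Pik3r1, and from day 2 to day 14 in 13 of 14 for Abcg1, Mylip and Cd36 and 3 for Ifnar2. In endothelial cells they held in 11 of 14 (day 2) and 9 of 14 (day 2 to day 14) for Atp8a1 and 7 of 14 (day 2) for Ifnar1. In monocyte-derived cells they held in 14 of 15 for Nr1h3 and 11 of 16 for Cd36 at day 14 against sham, and 12 of 15 for Abcg1 from day 2 to day 14.

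With only the compared groups in the fit, Gas6 of microglia at day 2 was called (0.93), as was endothelial Mertk from day 2 to day 14 (1.12). Without TMM, Gas6 of microglia at day 14 lost its call (0.85). Without a filter on low counts, endothelial Gas6 lost its call at day 2 (-0.95) and from day 2 to day 14 (1.03). DESeq2 called Mertk of microglia from day 2 to day 14 (1.53). Replicate numbers were not taken as pairs, since libraries of the same number deviated together in some pairs only (correlations of -0.29 to 0.55 in microglia and -0.08 to 0.76 in monocyte-derived cells); with the number as a replicate block, Mertk of monocyte-derived cells from day 2 to day 14 was called (1.22) and endothelial Gas6 at day 14 against sham was -0.018. The sign of uncalled Pros1 differences near 0 changed in microglia at day 14 against sham (DESeq2 -0.14, no TMM -0.43, no filter -0.0039), endothelial cells from day 2 to day 14 (no TMM 0.034), monocyte-derived cells at day 2 (DESeq2 -0.036, no TMM -0.22, rounding up -0.59) and day 14 against sham (no TMM -0.063, rounding up -0.44), and the aged minus young endothelial effect (no filter -0.11, sex as a covariate -0.014). The causes were not tested.

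With each library left out in turn, Gas6 ranged over 0.65 to 1.05 (day 2 against sham) and 1.15 to 1.44 (day 14 against sham) in microglia. In endothelial cells it ranged over -1.23 to -0.87 (day 2), -0.11 to 0.25 (day 14) and 0.90 to 1.28 (day 14 against day 2), and in border-associated macrophages over -0.34 to 0.47 (day 2). Mertk ranged over 1.16 to 1.87 in microglia from day 2 to day 14, called without day 2 replicate 2 (1.87). It ranged over 0.44 to 1.94 in monocyte-derived cells from day 2 to day 14, also called without day 2 replicate 2 (1.94). It ranged over -0.59 to 0.26 in endothelial cells at day 2 and -0.42 to 0.14 in border-associated macrophages at day 14 against sham. Pros1 ranged over -0.17 to 0.21 in microglia at day 14 against sham, -0.33 to 0.071 and -0.26 to 0.14 in endothelial cells (day 2, and day 14 against day 2), and -0.33 to 0.85, -0.13 to 0.98 and -0.10 to 0.59 in monocyte-derived cells (day 2, day 14, and day 14 against day 2). Axl of dendritic cells at day 14 against sham ranged over -0.0025 to 1.45. In aged microglia, Axl ranged over -0.042 to 2.28 and Pros1 over -0.38 to 0.0019, and the aged minus young effect of Pros1 over -0.072 to 0.31. In aged endothelial cells, Mertk ranged over -0.37 to 0.43 and Pros1 over -0.38 to 0.045, with aged minus young effects of -0.14 to 0.71 and -0.23 to 0.19.

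The number of called genes moved by over 1.5 times in several comparisons. In microglia at day 14 against sham it was 1544, 3425 without TMM and 791 to 2573 with 1 library left out; from day 2 to day 14 it was 703, 1157 without TMM, 426 with only the compared groups and 276 to 735 with 1 library left out; at day 2 it was 3182, and 2094 to 3120 with 1 library left out. In endothelial cells it was 778 at day 2 (320 to 991), 654 from day 2 to day 14 (404 without a filter, 324 to 523) and 0 at day 14 against sham (DESeq2 9, no filter 6, replicate block 1, and 0 to 1). In monocyte-derived cells it was 542 at day 2 (355 without TMM, 284 to 481), 416 at day 14 against sham (246 to 349) and 145 from day 2 to day 14 (DESeq2 386, replicate block 469, 45 to 191). In aged microglia it was 255 (DESeq2 466, no filter 393, only the compared groups 0, and 0 to 323), and for the age difference 0 (DESeq2 1, no filter 17, and 0 to 1).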
